A study of Mus musculus with 12 samples.

Results

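The genes described here are 9 mouse genes of the Lin28 developmental timing pathway: Lin28a, Lin28b, Hmga1, Hmga2, Igf2bp1, Igf2bp2, Igf2bp3, Trim71 and Arid3a. They were chosen by symbol, and all 9 were found among the 53392 genes of the deposited tables. They were followed through 12 libraries of polyadenylated RNA from the embryonic mouse upper face, in 4 groups of 3, all on the 129S4 strain background. The main comparison sets the wild-type palatal shelf at embryonic day E13.5 (Pdgfra+/+) against the control maxillary process at E11.5.

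The E11.5 controls were homozygous for a floxed Srsf3 allele (Srsf3fl/fl) and lacked the Wnt1-Cre transgene (Wnt1-Cre+/+). The third group carried that transgene on the same floxed background (Srsf3fl/fl;Wnt1-Cre+/Tg). Wnt1-Cre acts in the neural crest lineage, so other cells of the maxillary process keep the unrecombined allele. The fourth group was E13.5 palatal shelf homozygous for the PI3K allele of the PDGF receptor gene Pdgfra (PdgfraPI3K/PI3K). The covering ectoderm had been taken off with trypsin in every group. Stage, tissue, the floxed Srsf3 allele, the deposited table and the lane tag in the library names all change together between E11.5 and E13.5, so their parts in any difference between the stages cannot be told apart. The labels do not say how many embryos made up a library, and the p-values measure the spread between these libraries.

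Lin28a and Lin28b encode RNA-binding proteins that stop the processing of let-7 microRNA precursors. They bind a GGAG motif in the loop of the precursor and recruit enzymes that add uridines to it. Mature let-7 in turn represses mRNAs that carry matches to its seed in their 3′ untranslated region (3′ UTR), among them Lin28a and Lin28b themselves. Hmga2, Igf2bp1, Trim71 and Arid3a are known let-7 targets too. Across animals this loop is known for setting the pace of development: Lin28 genes are active early, and let-7 accumulates as tissues mature. The deposited tables measure polyadenylated transcripts of genes, and mature microRNAs were not analysed here.

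The microRNA sequences are shown because matches to their seeds were counted in the 3′ UTR of each of the 9 genes. Mature mouse sequences were taken from RefSeq (GRCm38.p6), with the seed, bases 2 to 8, in capitals. They are written in RNA letters. The let-7 family members printed here share 1 seed, and miR-125, the vertebrate relative of the worm timing microRNA lin-4, has another.
let-7a: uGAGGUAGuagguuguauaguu
let-7b: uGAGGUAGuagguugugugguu
let-7g: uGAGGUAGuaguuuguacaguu
miR-98: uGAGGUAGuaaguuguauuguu
miR-125b: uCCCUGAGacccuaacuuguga

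The let-7g hairpin, which lies at chr9:106178840-106178927 (GRCm38.p6, plus strand) within the span of the protein-coding gene Wdr82, shows the GGAG motif that LIN28 proteins are known to bind, in capitals. The hairpin of let-7b is set beside it because GGAG does not occur in those letters. It lies at chr15:85707319-85707403 (plus strand), within the noncoding gene Lncppara.
let-7g hairpin: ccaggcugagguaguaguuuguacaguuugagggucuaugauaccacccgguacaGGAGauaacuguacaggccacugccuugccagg
let-7b hairpin: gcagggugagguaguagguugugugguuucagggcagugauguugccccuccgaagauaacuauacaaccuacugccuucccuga

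A let-7 seed match of 8 bases, CTACCTCA on the sense strand of the transcript, was present in the longest annotated 3′ UTR of 8 of the 9 genes. Of all 21013 genes with an annotated 3′ UTR, 644 (3.06%) hold such a match. Hmga1 had the 7-base match CTACCTC, which occurs in 9.03% of genes. Trim71 held 4 matches of 8 bases, Igf2bp1 held 3 and Lin28a held 2, and the other 5 held 1 each. In the whole annotation 32 genes had 2 or more, 7 had 3 or more and 3 had 4 or more. Lin28b and Hmga2 each had 4 matches when those of 7 bases were counted. Longer 3′ UTRs hold more matches by their length alone, and those of the 9 genes ran from 1183 bases in Hmga1 to 6337 bases in Igf2bp1 against a median of 961 bases. These matches are a description of the letters and were not tested for activity.

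The sites are printed for the genes with the largest differences between the stages, Trim71 and the Lin28 genes, and for Hmga2, Igf2bp1 and Hmga1. All 4 of Trim71 and the first in each of the other genes are given. Each run has 22 bases from the GENCODE M21 transcripts (GRCm38), 5′ to 3′ on the strand of the transcript and in DNA letters, and the match to the let-7 seed is in capitals. Trim71, on the minus strand of chromosome 9, carries its sites at chr9:114512472-114512493, chr9:114512376-114512397, chr9:114509047-114509068 and chr9:114509021-114509042. The first site of Lin28a is at chr4:134005189-134005210, that of Lin28b at chr10:45381022-45381043 and that of Hmga2 at chr10:120364224-120364245, all on the minus strand. The first site of Igf2bp1 is at chr11:95961778-95961799 (minus strand) and that of Hmga1 at chr17:27563278-27563299 (plus strand).
Trim71 site 1: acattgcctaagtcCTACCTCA
Trim71 site 2: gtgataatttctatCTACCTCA
Trim71 site 3: ttagtatggattttCTACCTCA
Trim71 site 4: tggcaaaaagttgtCTACCTCA
Lin28a site: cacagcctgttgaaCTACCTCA
Lin28b site: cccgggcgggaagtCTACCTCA
Hmga2 site: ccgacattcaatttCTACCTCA
Igf2bp1 site: ctgtgcgaagtaaaCTACCTCA
Hmga1 site: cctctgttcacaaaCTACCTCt

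The sites of Lin28b and Hmga2 start 36 and 58 bases after the stop codon, and the last 2 of Trim71 start at bases 3591 and 3617 of its 3′ UTR. A match of 8 bases to the miR-125 seed, CTCAGGGA, occurred in Lin28a, Lin28b and Trim71 (1 each) and in Arid3a (2), against 4.59% of all genes with a 3′ UTR. Hmga1, Hmga2 and the 3 Igf2bp genes had none of 8 bases.

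**Figure D1:**
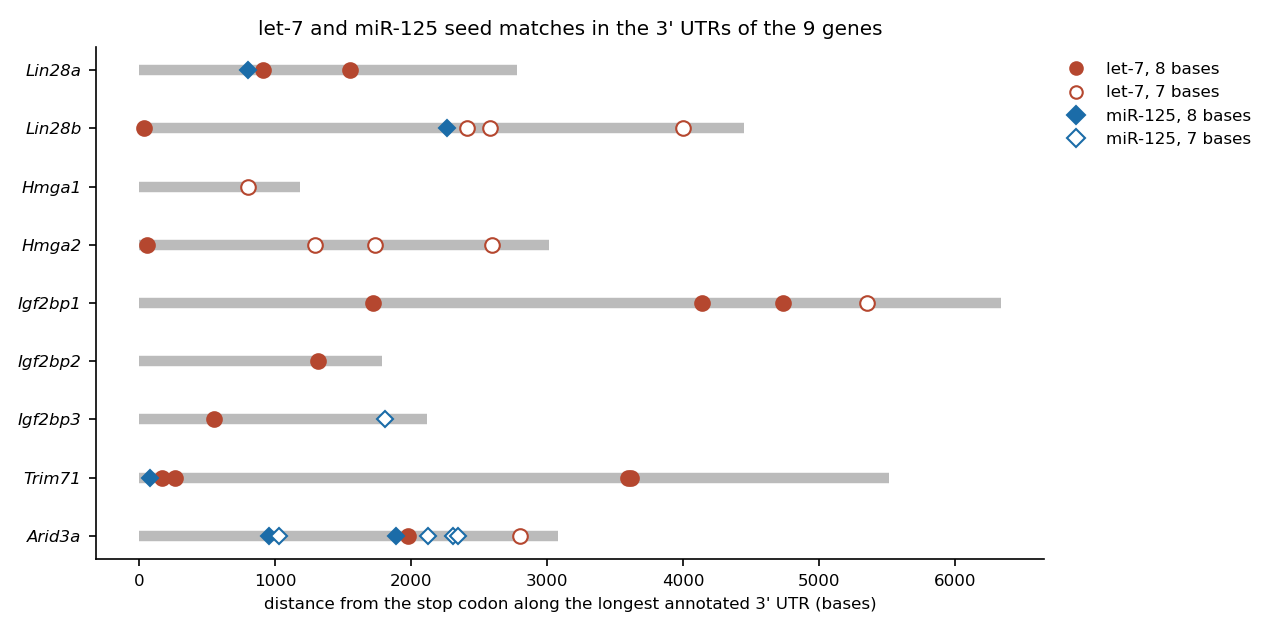
The longest annotated 3′ UTR of each of the 9 genes is drawn to scale from the stop codon (x axis, bases), with let-7 matches as red circles and miR-125 matches as blue diamonds, filled for 8 bases and open for 7. Trim71 shows 4 filled circles, in 2 close pairs, and Hmga1 shows a single open circle.

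Library totals ran from 15932541 to 21722187 estimated counts in the controls and from 18356229 to 27887654 in the libraries labelled Srsf3 cKO. In the palatal shelf they ran from 30654736 to 35330324 in wild-type and from 30509338 to 37406960 in PI3K libraries. Levels are given in CPM, estimated counts scaled to a common library size. For Srsf3 itself the 3 controls held 621, 595 and 562 CPM and those labelled Srsf3 cKO held 478, 694 and 640 CPM, a log2 fold change of 0.03 (SE 0.14, edgeR adjusted p = 0.9539). Its gene total therefore gives no check of those labels, and every direction below that uses them rests on the labels. The tissue was checked by 8 mesenchyme marker genes. Their summed level was 5170 to 7680 CPM in controls, 4930 to 5630 CPM in the libraries labelled Srsf3 cKO, 9030 to 11500 CPM in wild-type and 8720 to 10700 CPM in PI3K libraries. Col1a2 and Col3a1 made up much of it, with means of 3640 and 3630 CPM in wild-type against 1720 and 1190 CPM in controls. In wild-type against control 4 of the 8 were higher and 3 lower (edgeR adjusted p under 0.05). The 3 lower were Prrx1 (log2 fold change -0.55), Twist1 (-0.85) and Msx1 (-1.80). The sum is therefore no measure of the amount of mesenchyme.

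All 9 genes had lower levels in the E13.5 wild-type palatal shelf than in the E11.5 control maxillary process. Trim71, Lin28b and Lin28a, the genes with the lowest levels, had the largest differences, and at E13.5 Lin28a had no count in any wild-type library. Hmga1, Hmga2 and the 3 Igf2bp genes were lower but still abundant. Of the 8 genes that could be tested, 8 passed a false discovery rate (FDR) of 0.05 as lower (edgeR quasi-likelihood test, Benjamini-Hochberg adjustment over 15752 genes), and 7 were lower by at least 1 on the log2 scale. Among all genes tested, 23.4% were lower at FDR 0.05 and 4.27% were lower by at least 1 at that FDR. The 2 groups did not overlap in any of the 8, and 28.9% of all genes were lower with no overlap. The median log2 fold change of the 8 genes was -1.50 against 0.03 for all genes.

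The levels below are CPM from the deposited estimated counts, scaled over all 12 libraries by the TMM method, which puts the separately deposited tables on a common scale. Table and stage change together, so this scaling cannot remove a difference between the tables. In bulk tissue, fewer cells that make a transcript and less transcript per cell cannot be told apart.

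Lin28b, the let-7 regulator that is also known in fetal blood progenitors, had 52.7, 32.4 and 15.5 CPM in controls 1, 2 and 3. Wild-type palatal shelf libraries had 1.42, 2.25 and 1.46 CPM. The lowest control stood 6.92 times above the highest wild-type library, although the controls themselves spread over 3.39 times. The log2 fold change was -4.30 (SE 0.47, 95% interval -5.40 to -3.20, adjusted p = 0.0004923 by edgeR), or 19.6-fold lower. On the log2(TPM + 1) scale, which understates the change of low genes, limma gave -2.70 for Lin28b. The gene lies on chromosome 10 from 45376620 to 45486395 on the minus strand (ENSMUSG00000063804.8).

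Lin28a, the paralog best known from embryonic stem cells, had 21, 10 and 1 estimated counts in the controls and 0, 0 and 0 in the wild-type libraries. The 2 groups did not overlap, but the range of the controls nearly reaches 0. Over the group it had 32 counts of 54805134 against 0 of 99731614, so the control level was at least 19.4-fold higher, taking a floor of 3 counts over the group. Control 1 held 21 of the 32 counts, and without it the bound was 9.41-fold; leaving out each of the 6 libraries in turn gave bounds from 9.41 to 31.2. The gene did not pass the filter on low counts in this comparison, so there is no adjusted p for it. With no filter on low counts the other genes were still called. Lin28a then entered only through its control counts, so its test is not counted here. Its single count in control 3 corresponds to 0.286 TPM, a level scaled for transcript length, more than the 0.279 TPM that 10 counts gave in control 2, so its TPM values do not order these libraries. Lin28a lies on chromosome 4 from 134003330 to 134018841 on the minus strand (ENSMUSG00000050966.9).

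Trim71, an RNA-binding ubiquitin ligase and the mammalian relative of the worm timing gene lin-41, had 59.8, 35.5 and 22.1 CPM in the controls. In wild-type palatal shelves it had 0.598, 1.53 and 1.40 CPM. The lowest control was 14.4 times the highest wild-type library. The log2 fold change was -5.04 (SE 0.47, 95% interval -6.15 to -3.94, adjusted p = 0.0002795 by edgeR), 33.0-fold lower. With limma on log2(TPM + 1) it was -2.57. Trim71 lies on chromosome 9 from 114507133 to 114564369 on the minus strand (ENSMUSG00000079259.2).

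Hmga2, a chromatin architectural protein of the high mobility group, was the most abundant of the 9 in CPM, with 1075, 959 and 896 CPM in the controls. The wild-type palatal shelf had 249.5, 533 and 322 CPM. Wild-type library 2 stood well above the other 2, and the groups still did not overlap. The log2 fold change was -1.42 (SE 0.26, adjusted p = 0.003522 by edgeR), 2.67-fold lower. Hmga2 lies on chromosome 10 from 120361275 to 120476469 on the minus strand (ENSMUSG00000056758.14).

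Hmga1, its paralog, had 395, 304 and 231.5 CPM in the controls and 74.3, 129 and 112 CPM in the wild-type libraries. The log2 fold change was -1.57 (SE 0.25, adjusted p = 0.001971 by edgeR), 2.98-fold lower with no overlap. Its count is uncertain, because 62.1% of the 31-base stretches of its transcripts also occur in Hmga1b, a near-identical copy on another chromosome. The 2 copies summed to 1022, 848 and 588 CPM in the controls and 203, 387 and 308 CPM in the wild-type libraries, also without overlap. Hmga1 took between 33.3% and 39.4% of that sum in all 12 libraries. Hmga1 lies on chromosome 17 from 27556497 to 27563674 on the plus strand (ENSMUSG00000046711.16).

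The 3 Igf2bp genes encode proteins that bind mRNAs and are known to stabilise them, among them the mRNA of Igf2, after which they are named. Igf2bp1 had 747, 600 and 568 CPM in the controls and 135, 203 and 176 CPM in the wild-type libraries. Its log2 fold change was -1.90 (SE 0.18, adjusted p = 0.0002615 by edgeR), 3.74-fold lower. Igf2bp3 had 335, 294 and 228 CPM in the controls and 110, 155 and 133 CPM in the wild-type libraries, a log2 fold change of -1.11 (SE 0.17, adjusted p = 0.001881 by edgeR). Igf2bp2 had 414, 360 and 341 CPM against 189, 237 and 217 CPM. Its log2 fold change of -0.80 (SE 0.12, adjusted p = 0.001521 by edgeR) was the smallest of the 8, at 1.74-fold lower. The intervals of Igf2bp1 (-2.31 to -1.49) and Igf2bp2 (-1.08 to -0.53) did not overlap, and the difference between the genes was not tested. None of the 31-base stretches of the Igf2bp1 transcripts occurred in Igf2bp2 or Igf2bp3 (0 shared). Igf2bp1 lies on chromosome 11 from 95957163 to 96005940, Igf2bp2 on chromosome 16 from 22059009 to 22163299 and Igf2bp3 on chromosome 6 from 49085223 to 49214957, each on the minus strand.

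Arid3a, a DNA-binding factor of the ARID family, had 62.9, 48.9 and 36.7 CPM in the controls and 18.4, 21.4 and 23.1 CPM in the wild-type libraries. The log2 fold change was -1.25 (SE 0.20, adjusted p = 0.002067 by edgeR), 2.38-fold lower with no overlap. Arid3a lies on chromosome 10 from 79927043 to 79955018 on the plus strand (ENSMUSG00000019564.12).

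**Figure D2:**
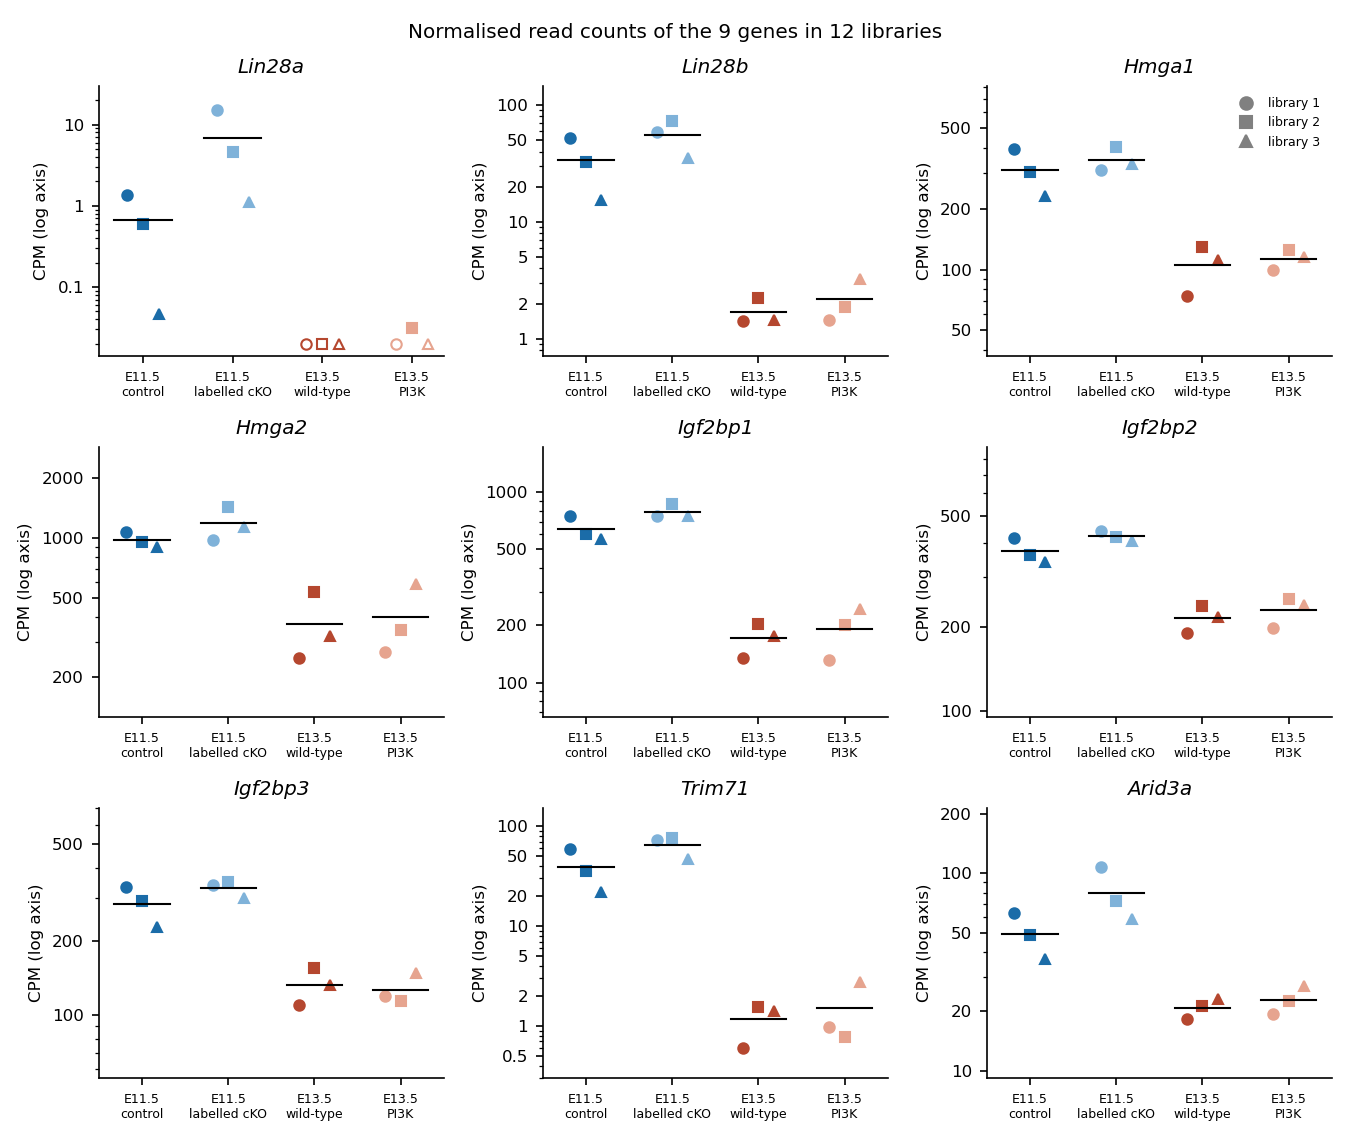
Each panel gives the CPM of 1 gene (log axis) in the 3 libraries of each group, with the mean as a line and values of 0 as open symbols at the bottom of the Lin28a panel. In all 9 panels the E13.5 libraries lie below the E11.5 libraries, from 1.74-fold in Igf2bp2 to 33.0-fold in Trim71 for wild-type against control.

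Gene models overlap some of these genes, and whether strand was used in counting is not given in the sources used here. The overlapping antisense models were low beside them: Gm49774 over Hmga1 had 0.973 to 1.55 CPM in the controls, and 9230105E05Rik over Hmga2 had at most 2 counts in any library. Malsu1, on the strand opposite Igf2bp3, had 14.2 ± 1.96 CPM in controls and 12.2 ± 0.496 CPM in wild-type (SD, n = 3 each), against 285 ± 53.7 and 133 ± 22.4 CPM for Igf2bp3 itself.

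Levels can be compared between genes only per length, in TPM. In the controls Hmga1 led with 547 ± 118 TPM, then Hmga2 with 437 ± 26.9 TPM (SD, n = 3 each), and the ranges of these 2 overlapped. Igf2bp2 (172 ± 13.2), Igf2bp1 (126 ± 17.0) and Igf2bp3 (108 ± 16.4 TPM) followed, with overlap between the last 2. Arid3a had 17.6 ± 3.68, Lin28b 10.2 ± 5.28 and Trim71 6.66 ± 3.05 TPM, each overlapping its neighbour, and Lin28a came last. In wild-type palatal shelves the order was the same except that Igf2bp3 (57.5 ± 9.38 TPM) stood above Igf2bp1 (40.6 ± 7.89 TPM). The lowest Igf2bp3 value there, 47.5 TPM, was level with the highest of Igf2bp1. There Arid3a had 8.12 ± 1.25, Lin28b 0.595 ± 0.166 and Trim71 0.226 ± 0.0975 TPM (SD, n = 3 each).

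The other pair of groups at the 2 stages, PI3K palatal shelves against maxillary processes labelled Srsf3 cKO, shares no library with the first. Of the 8 genes other than Lin28a 8 passed FDR 0.05 as lower, 7 of them by at least 1 on the log2 scale (edgeR quasi-likelihood test). The shares among all 15948 genes were 19.9% and 5.2%. The groups did not overlap in any of these 8, against 26.9% of all genes that were lower with no overlap. Log2 fold changes ran from -0.90 (SE 0.12) in Igf2bp2 to -5.44 (SE 0.47) in Trim71. Without PI3K library 3 that of Trim71 was -6.25.

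In this pair Lin28b had 58.8, 72.9 and 35.5 CPM at E11.5 against 1.45, 1.86 and 3.25 CPM at E13.5, a log2 fold change of -4.69 (SE 0.39, adjusted p = 0.0001897 by edgeR). Lin28a had 283, 121 and 20 counts in the libraries labelled Srsf3 cKO and 0, 1 and 0 in the PI3K libraries. It passed the filter on low counts only through its E11.5 libraries, so its test is not counted here. The pooled 424 counts of 65950321 against 1 of 100226614 gave a ratio of 644 with a 95% counting interval from 115 to 25500, which covers counting error only. Without the first library labelled Srsf3 cKO the ratio was 306, and without PI3K library 3 it was 404. Without PI3K library 2, which holds the 1 count, the E11.5 level was at least 146-fold higher. Its 3 E11.5 libraries differed 13.3-fold among themselves.

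The 2 stage differences were compared in a fit of all 12 libraries. The difference between them passed FDR 0.05 in 0 of the 8 genes other than Lin28a and at an unadjusted p under 0.05 in none (edgeR quasi-likelihood test). Few of all genes were called either, and their count is given under the dependence on the processing. Lin28a is left out, because its counts at E13.5 were too few for such a comparison. The nearest was Arid3a, at -0.56 (SE 0.33, 95% interval -1.27 to 0.16, unadjusted p = 0.1176, adjusted p = 0.6713). For Lin28b it was -0.37 with an interval of -1.74 to 0.99, and for Igf2bp2 -0.08 with an interval of -0.44 to 0.28. These libraries are compatible with differences anywhere inside those intervals.

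The PI3K allele was compared with wild-type within the palatal shelf. Of 8 genes tested 0 were called, and 0.0% of all 16525 genes were called at FDR 0.05 (edgeR quasi-likelihood test). The 354 genes with an unadjusted p under 0.05 included none of the 8, and DESeq2 called 5 genes, again none of the 8. Log2 fold changes ran from -0.06 (SE 0.15) in Igf2bp3 to 0.36 (SE 0.38) in Lin28b, and the groups overlapped in all 8, where 6.23% of all genes did not overlap. The widest interval was that of Trim71, -0.99 to 1.70, and the narrowest that of Igf2bp2, -0.18 to 0.39. The signs of 6 of the 8 changed when single libraries were left out. The 8 skeletal muscle markers summed to 30.6 to 215 CPM in PI3K and 2.85 to 51.2 CPM in wild-type libraries, and their part in these values was not tested.

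The libraries labelled Srsf3 cKO were compared with their controls within the maxillary process. Of the 8 genes other than Lin28a 0 were called at FDR 0.05, against 0.0842% of all 14254 genes (edgeR quasi-likelihood test). DESeq2 called none of these 8 either. Lin28a passed the filter on low counts there through the libraries labelled Srsf3 cKO and is left out of these counts. The fold changes of the other 8 were above 0, as were 50.7% of those of all genes. At an unadjusted p under 0.05 Arid3a and Igf2bp1 had higher levels, where 6.34% of all genes did. Igf2bp1 had 752, 863 and 745.8 CPM against 746.7, 600 and 568 CPM. The groups of Igf2bp1 thus overlapped slightly on the scaling over 12 libraries. On the scaling of the 6 libraries of this comparison alone they did not, where 18.1% of all genes did not overlap either. Its log2 fold change was 0.31 (SE 0.12, adjusted p = 0.3909 by edgeR).

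Arid3a stood at 107, 72.8 and 58.8 CPM where Srsf3 cKO was the label, with a log2 fold change of 0.69 (SE 0.26, adjusted p = 0.3793 by edgeR). For Lin28a the levels were 14.9, 4.59 and 1.13 CPM against 1.36, 0.597 and 0.0463 CPM, so that library 3 of those labelled Srsf3 cKO lay below control 1. The test of Lin28a is not counted here, because it passed the filter only through the libraries labelled Srsf3 cKO. Its fitted value is no measure of size. With the replicate number as a block none of the other 8 genes passed FDR 0.05 by edgeR, and the numbers were not taken to pair these samples.

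Markers of other cells also had higher sums under that label, although 0 of the 8 endothelial and 0 of the 7 tested ectoderm markers passed FDR 0.05 by edgeR. An unadjusted p under 0.05 was found for 8 and 4 of them, and for 12.2% of all genes. The 8 endothelial markers summed to 463 to 900 CPM in the libraries labelled Srsf3 cKO and 345 to 364 CPM in the controls, and the 10 ectoderm markers to 10.9 to 23.3 against 2.04 to 10.1 CPM. Their part in the values of Lin28a and Arid3a was not tested.

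**Figure D3:**
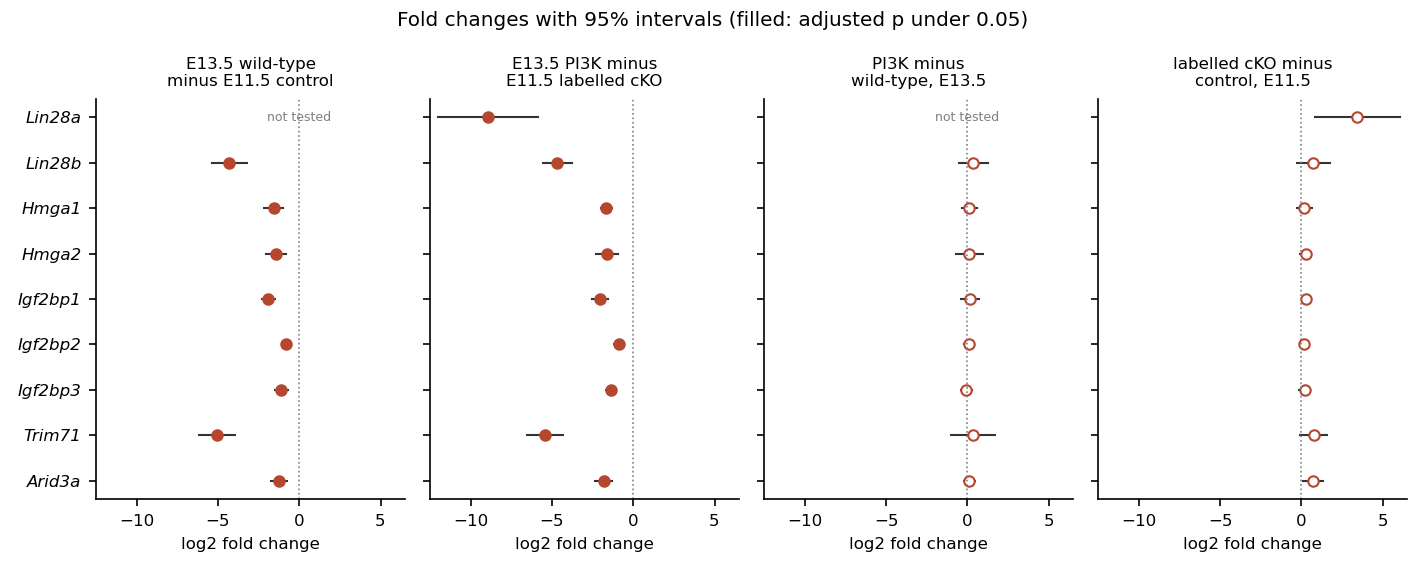
Log2 fold changes of the 9 genes (x axis) with their 95% intervals in the 4 comparisons, filled where the adjusted p was under 0.05. The 8 genes other than Lin28a are filled and below 0 in the 2 comparisons between the stages, and none is filled in the 2 genotype comparisons. Lin28a was not tested in 2 panels and entered the other 2 through its counts in 1 group, so its fitted values are no measure of size.

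Markers of other cells also moved between the stages. All 10 ectoderm markers were higher at E13.5, with a summed level of 713 to 914 CPM in wild-type and 407 to 978 CPM in PI3K libraries. Of 11 red blood cell markers 7 were lower and 2 higher in wild-type than in control. Their sum was 1160 to 2680 CPM in wild-type and 1170 to 1790 CPM in PI3K libraries, against 4350 to 7370 CPM in the controls and 4600 to 12600 CPM in the libraries labelled Srsf3 cKO. Of 8 macrophage markers 6 were higher, with a sum of 42.1 to 113 CPM in wild-type and 19.8 to 23.6 CPM in controls. Among all tested genes with a 3′ UTR, 25.1% were lower and 28.2% higher in wild-type against control. In the second pair 24.4% were higher. No red blood cell or ectoderm marker was at 0 in a whole group. The part of other cell types in the values of the 9 genes was not tested.

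Outside the 9 genes, those whose profile over the 12 libraries was nearest to that of Lin28b were Clec1b, Sall4, Slc38a5, Klf1 and Dusp9. Likeness was the root mean square distance between log2 CPM profiles, each centred on its own mean, and it ran from 0.498 for Clec1b to 0.653 for Dusp9. Trim71 was at 0.566 from Lin28b. Klf1 is a red cell transcription factor and Clec1b a platelet receptor. Sall4, a zinc finger factor of embryonic stem cells, had 28.6 CPM in the controls and 3.03 CPM in wild-type palatal shelves on average.

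Within the controls, Lin28b and the red cell markers did not order the libraries alike. Lin28b fell over 52.7, 32.4 and 15.5 CPM in controls 1, 2 and 3, while Klf1 had 6.68, 8.77 and 5.46 CPM and the red blood cell markers summed to 4350, 7370 and 5590 CPM. Library 1 labelled Srsf3 cKO had the highest red blood cell sum of all 12 (12600 CPM) with 58.8 CPM of Lin28b. That was below the 72.9 CPM of library 2, where that sum was 4600 CPM. Across PI3K libraries 1, 2 and 3 both rose, Lin28b over 1.45, 1.86 and 3.25 CPM and the sum over 1170, 1200 and 1790 CPM. Wild-type libraries had 1.42, 2.25 and 1.46 CPM of Lin28b with sums of 2680, 2550 and 1160 CPM. Their embryonic globins had 340, 824 and 282 CPM. The part of red blood cells in the Lin28b values was not tested. The nearest to Hmga2 outside the 9 were Eme1, Ccnjl, Fam107b, Elovl2 and Hmgb3, at distances of 0.194 to 0.216. Of the other 8 genes Hmga1 was nearest to Hmga2, at 0.263, and Igf2bp1 next, at 0.280.

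The machinery that makes and destroys let-7 was mostly lower at E13.5. Of 19 genes of let-7 biogenesis and decay 11 were lower and 1 higher in wild-type against control (edgeR, FDR 0.05), with a median log2 fold change of -0.33. In PI3K against the libraries labelled Srsf3 cKO 11 were lower and 2 higher. Of all tested genes with a 3′ UTR, 25.1% and 21.4% were lower in these 2 comparisons, and 28.2% and 24.4% were higher. Dicer1, which cuts the precursor, fell by 0.84 on the log2 scale (SE 0.09, adjusted p = 0.0003767 by edgeR). Drosha, which releases the hairpin, fell by 0.59 (SE 0.10), and its partner Dgcr8 had -0.28 (SE 0.10, adjusted p = 0.05749). Xpo5, the export factor, fell by 0.53 (SE 0.09).

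Tut4, an enzyme that adds uridines to let-7 precursors bound by LIN28, fell by 0.72 on the log2 scale (SE 0.12), while its paralog Tut7 had -0.11 (SE 0.07, adjusted p = 0.2362 by edgeR). Dis3l2, the exonuclease that degrades the uridylated precursor, fell by 0.30 (SE 0.10), and had -0.06 (SE 0.17) in the second pair of groups. Hnrnpa1, which binds the let-7a hairpin, fell by 0.78 and Khsrp, which promotes its processing, by 0.60. The one gene that was higher was Ago1, an effector that carries mature microRNAs, at 0.52 (SE 0.14). In both genotype comparisons 0 of the 19 passed by edgeR. At an unadjusted p under 0.05 there were 0 and 1, where 2.14% and 12.2% of all genes had such a p.

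Transcripts that span let-7 hairpins were found by coordinates. Mir99ahg, which spans the let-7c-1 hairpin, had 2.66, 2.75 and 2.96 CPM in the controls and 4.31, 4.22 and 4.75 CPM in wild-type libraries. Its log2 fold change was 0.66 (SE 0.20, adjusted p = 0.02679 by edgeR), and in the second pair it was 0.59 (SE 0.38) and not called. The noncoding gene 6720427I07Rik, over the cluster of let-7a-1, let-7f-1 and let-7d, had -0.83 (SE 0.30), with an adjusted p of 0.05037 by edgeR, and was not called. Huwe1, over let-7f-2 and miR-98, had -0.14 (SE 0.13), and Wdr82, over let-7g, -0.12 (SE 0.08), neither called. Lncppara, over let-7b and let-7c-2, did not pass the filter on low counts. Host levels do not measure the mature microRNA.

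Other let-7 targets were lower more often than higher. Of 24 such genes 14 were lower and 4 higher in wild-type against control, with a median log2 fold change of -0.45. In the second pair 13 were lower and 1 higher. Among all tested genes with a 3′ UTR 25.1% and 21.4% were lower in the 2 pairs, and 28.2% and 24.4% were higher. The 6 with the smallest p were Mycn (-2.29, SE 0.20), E2f2 (-1.30), Rrm2 (-1.83), Arid3b (-2.25), Dna2 (-1.51) and Hic2 (-1.42), a group of growth and replication genes and DNA-binding factors. Arid3b, a paralog of Arid3a, had 46.8, 33.8 and 26.8 CPM in the controls and 6.77, 9.18 and 6.73 CPM in the wild-type libraries. This list was drawn up from general knowledge with earlier results of these data known.

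The messages known to be bound by Igf2bp proteins did not move one way. Of 7, 3 were higher and 3 lower in wild-type against control, where 28.2% of tested genes with a 3′ UTR were higher and 25.1% lower. Igf2 rose by 2.35 (SE 0.23, adjusted p = 0.0003213 by edgeR), from 593, 677 and 939 CPM in the controls to 4588, 2962 and 3705 CPM. H19, the noncoding RNA from the same imprinted locus, rose by 1.73 (SE 0.19), and Cd44, a hyaluronan receptor, by 4.21 (SE 0.34). Fscn1, an actin bundler, fell by 0.87 (SE 0.12), Actb by 0.51 and Btrc by 0.35.

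All 5 late temporal factors, transcription factors known from late progenitors, were higher at E13.5 in both pairs (edgeR, FDR 0.05). Their median log2 fold changes were 2.85 and 2.94. Of all tested genes with a 3′ UTR 28.2% and 24.4% were higher. Nfia had 27.5, 32.05 and 42.8 CPM in the controls and 283, 289 and 304 CPM in wild-type libraries, a log2 fold change of 3.09 (SE 0.16). Nfix (3.75, SE 0.46), Nfib (2.85, SE 0.30), Nfic (2.26, SE 0.21) and Zbtb20 (1.93, SE 0.23) rose with it. Of 7 pluripotency genes known to act with Lin28a, 3 passed the filter in wild-type against control. Sall4 fell by 3.24 (SE 0.59) and Sox2 rose by 4.91 (SE 0.23). Nanog had 0, 0 and 0.0463 CPM in the controls and 0.441, 0.685 and 0.487 CPM in wild-type libraries, too few counts in the controls for a fold change. Sox2 is also made in the epithelium of the mouth, and the ectoderm markers were higher in the same libraries. The part of epithelium in the Sox2 values was not tested.

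**Figure D4:**
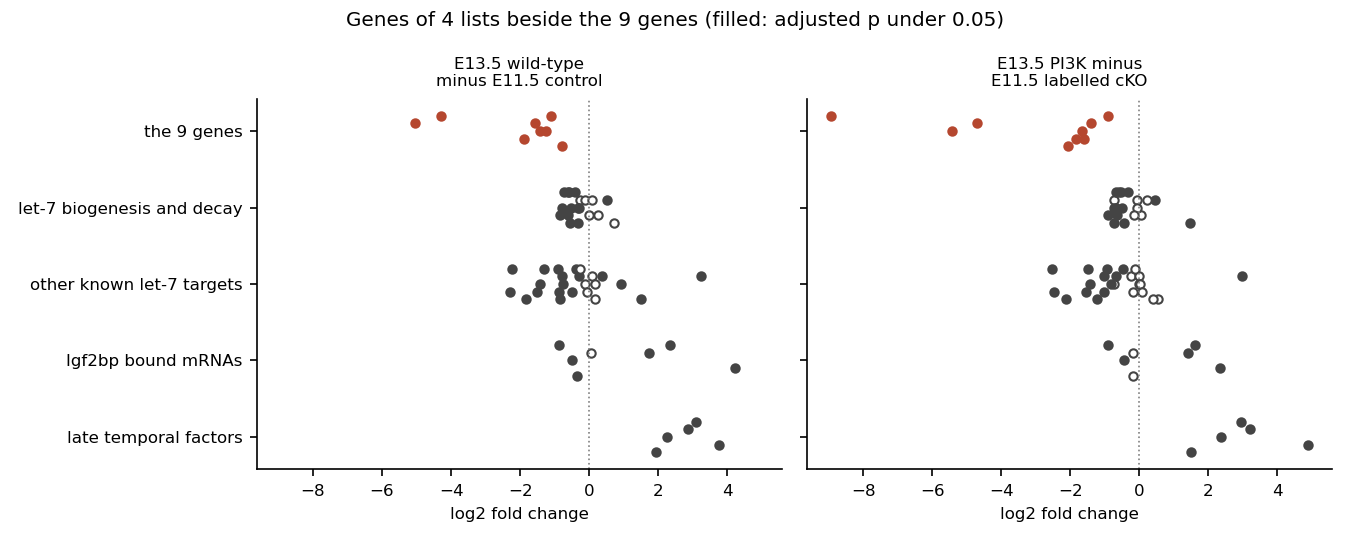
Every tested gene of 4 lists and the 9 genes is plotted by its log2 fold change (x axis) in the 2 comparisons between the stages, filled where the adjusted p was under 0.05. The leftmost point of the second panel is Lin28a, whose fitted value is no measure of size. Lin28a was not tested in wild-type against control and has no point in the first panel. The tested genes of the 9 and the 5 late temporal factors lie on opposite sides of 0 in both panels. In wild-type against control 8 of 8 and 5 of 5 tested genes are filled.

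Seed matches over all genes were described next, for 13972 tested genes with a 3′ UTR in wild-type against control. Of the 27 genes with 2 or more let-7 matches of 8 bases 40.7% were lower at FDR 0.05, as were 27.9% of the 494 genes with 1 match and 3359 of the 13451 with none. Their median log2 fold changes were -0.27, 0.00 and 0.03. With Trim71 and Igf2bp1 left out, 36.0% of 25 genes with 2 or more matches were lower, with a median of -0.17. The 27 had a median 3′ UTR of 4457 bases against 1178 bases for genes with none, so length differs with the number of matches. No test was made of these differences.

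Beside Trim71 and Igf2bp1 the 27 genes included others with 3 or more matches, named here after their values were seen. Trim6 (5 matches, -2.55), Fign (3, -2.68) and Fignl2 (3, -2.18) were lower. Mcf2l, with 7 matches, had 0.42 (adjusted p = 0.09355 by edgeR) and in the second pair was higher by 1.18 (adjusted p = 0.0007755 by edgeR). Nr6a1, with 3 matches, had -0.13.

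Within some groups the libraries ranked alike across the 9 genes. In the controls, library 1 was the highest and library 3 the lowest for all 9, an order found in 24.1% of all 16594 genes with counts. It held for 52.9% of the 823 genes that were lower by at least 1 in PI3K against the libraries labelled Srsf3 cKO, a comparison that uses no control library. The late temporal factors were opposite: library 3 was the highest for 5 of 5 and library 1 the lowest for 4 of 5. The shares of all genes were 39.4% and 34.0%. Of the 2481 genes that were higher by at least 1 in PI3K against the libraries labelled Srsf3 cKO, they were 61.2% and 54.2%. Control 3 also had the highest summed neuron and glia markers (214 CPM against 88.1 and 128) and neuroepithelium markers (73.1 CPM against 7.20 and 14.8). Of the 7 neuroepithelium markers Sox1, Neurog2, Hes5 and Six3 were at 0 in all controls. The part of these markers in this order was not tested.

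Among wild-type palatal shelves library 1 was the lowest for all 8 genes with counts, as it was for 39.8% of all genes. Library 2 was the highest for 7 of these 8, against 38.4% of all genes. Of 819 genes lower by at least 1 in PI3K against the libraries labelled Srsf3 cKO, library 1 was the lowest for 52.0% and library 2 the highest for 55.7%. Among PI3K libraries library 3 was the highest for 6 of 9 and library 1 the lowest for 6, with Lin28a tied at 0 in 2 libraries. The shares of all genes were 29.5% and 31.4%. Of 670 genes lower by at least 1 in wild-type against control, they were 49.6% and 46.7%. Among those labelled Srsf3 cKO library 2 was the highest for 6 of 9 and library 3 the lowest for 7. There the shares of all genes were 32.7% and 28.9%.

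**Figure D5:**
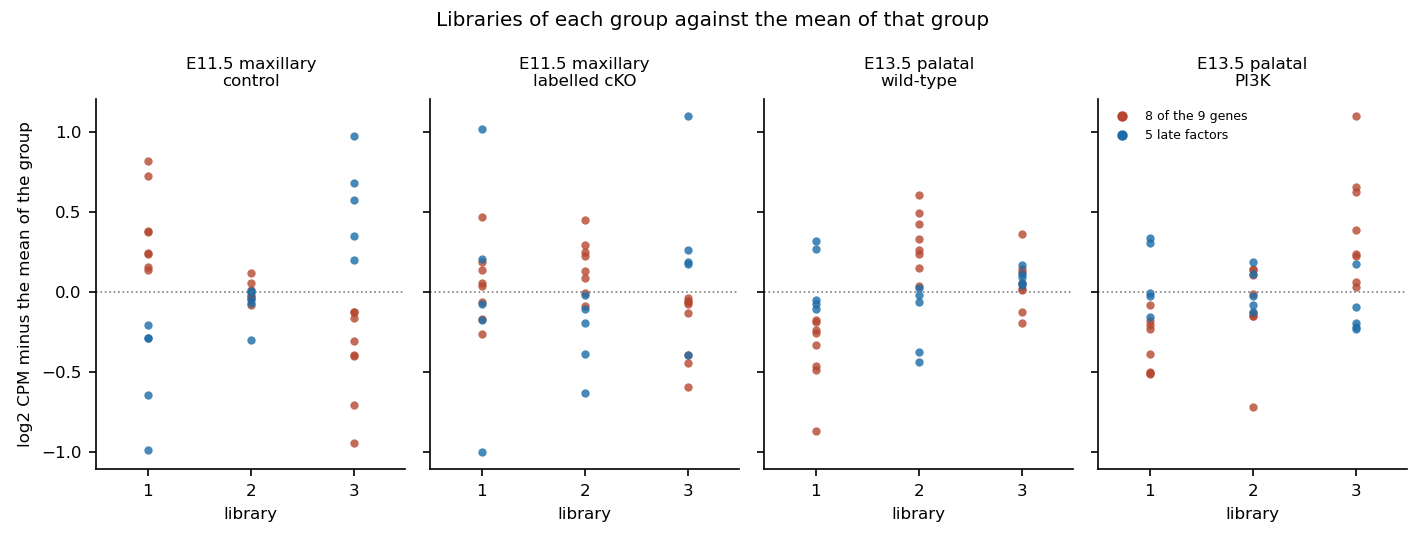
For each library (x axis), log2 CPM minus the mean of its group is shown for the 8 genes other than Lin28a in red and for the 5 late temporal factors in blue, 1 panel per group. In the control panel the red points lie above 0 in library 1 and below 0 in library 3, and the blue points lie the other way.

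The effective length of a gene, its estimated count divided by its TPM and centred on the median gene of the library, moves when the mix of its transcripts changes. It could be read in all 6 libraries of wild-type against control for 6 of the 9 genes with at least 50 counts. The shifts were 0.15 on the log2 scale in Hmga1, 0.06 in Arid3a, 0.02 in Hmga2, -0.01 in Igf2bp3, -0.02 in Igf2bp2 and -0.10 in Igf2bp1, where 9.24% of 11093 genes shifted by at least 0.2. None of the 6 shifted by that much. Arid3a stood apart in 1 library: it had 0.31 in PI3K library 2 against 1.08 and 1.03 in the other PI3K libraries. Its TPM value there was 13.3 against 6.73 and 9.99, while its level in CPM was 22.5 against 19.4 and 26.8. These shifts have no test.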

How the data were processed

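The deposited tables hold estimated counts per gene and TPM values, 1 palatal shelf and 1 maxillary process table of each. Per the submitters' processing notes, STAR 2.7.0, Salmon 1.1.0, DESeq2 1.28.1 and mm10 were used, and their roles are not given. The authors' estimated counts were rounded to whole numbers. The authors' TPM values are scaled per transcript length and library. Of 53392 identifiers, 53355 matched GENCODE M21 when versions were dropped, and the annotation release the authors used is not given in the sources used here. Groups came from the labels.

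Each comparison was fitted on its 6 libraries with edgeR 4.0.16 in R 4.3.3 (quasi-likelihood F-test, TMM, filterByExpr, Benjamini-Hochberg adjustment, FDR 0.05), and the difference between the stage comparisons on all 12. Standard errors were derived from the F statistic. The scripts were tested on simulated data. Alternatives were other size factors, other filters, a replicate block, DESeq2 1.42.0, limma 3.58.1 on log2(TPM + 1) and log2(TPM + 0.1), stricter thresholds and leaving out each library. For low genes, a fold change on the log2(TPM + 1) scale understates the change.

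The members and gene lists were chosen with earlier results of these data known. Genes were named as follows: all members, up to 6 genes per list with the smallest p, let-7 processing genes and hosts, and the 5 genes most alike to Lin28b and to Hmga2 (prior count 0.5). The let-7 targets called higher were added after their values were seen.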

Additional observations from a re-analysis of the deposited data

How the results depend on the processing

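The lower levels at E13.5 kept their direction and stayed past FDR 0.05 in all 112 values (8 genes, 14 alternatives) for wild-type against control and all 104 (8 genes other than Lin28a, 13 alternatives) for the second pair. The sizes of the low genes depended on the scale: with limma on log2(TPM + 1) Lin28b had -2.70 and Trim71 -2.57. Genes called between the stages fell from 7965 and 6900 to 5008 and 4075 at FDR 0.01, and to 3354 and 3432 with an absolute log2 fold change of at least 1. Of 7965 calls by edgeR 53.7% were higher, and of 7018 calls by limma on log2(TPM + 1) 69.0% were. In the second pair the shares were 54.0% of 6900 and 73.4% of 6484. The median of all genes moved from 0.03 to 0.16 and from 0.03 to 0.20 with that scaling.

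In the PI3K comparison DESeq2 called 5 genes in place of 0. When single libraries were left out, 6 genes changed sign there: Lin28b ran from -0.030 to 0.62, Hmga1 from -0.067 to 0.29, Hmga2 from -0.25 to 0.49, Igf2bp1 from -0.026 to 0.40, Igf2bp3 from -0.17 to 0.075 and Trim71 from -0.41 to 0.66. The lowest values of Lin28b, Hmga2, Igf2bp1, Igf2bp3 and Trim71 came without PI3K library 3, and that of Hmga1 without wild-type library 1. For the libraries labelled Srsf3 cKO 12 genes became 143 with no filter on low counts, 356 with DESeq2, 4 at FDR 0.01 and between 2 and 29 when 1 library was left out. The difference between the stage comparisons had 7 calls and 64 with no filter. The median of genes with 2 or more let-7 matches was -0.27 and -0.43 in the 2 stage comparisons, and -0.16 and -0.18 with 7-base matches. The cause of these changes was not tested.

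Samples share a replicate number but are not shown to be pairs. Correlations of same-numbered deviations ran from -0.10 to 0.06 and from -0.00 to 0.07 in the stage comparisons, -0.19 to 0.44 in the PI3K and 0.08 to 0.13 in the cKO comparison. Of 6 libraries in each comparison 2, 2, 3 and 6 correlated best with their own number, as a hint from the data and not the design. With the replicate block 6835, 5900, 0 and 40 genes were called, and 11 for the difference between the stages. Lin28a rests on 1 to 21 counts in the controls, so its level there carries a wide counting error. The alternatives for the difference between the stage comparisons and for the bounds of Lin28a were chosen after seeing the data.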
